A study of Rattus norvegicus with 21 samples.

Results

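The 7 genes described here, Epcam, Cd24, Tspan8, Lgals4, Cldn3, Cldn4 and Cldn7, code for surface, lectin and tight junction proteins of simple epithelia such as the bile duct lining. They were chosen by name, with earlier results of these data known. All are among the 14218 genes that the array platform's annotation ties to probe sets of a single symbol. Each of the 7 had 1 such probe set, so no other probe set could serve as a check. Levels are the log2 values of these probe sets, and a difference of 1 is a doubling of the signal.

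RNA came from 9 male young adult Fischer 344 rats that had been inoculated with BDEneu cells, a rat cholangiocyte line transformed with activated neu, the rat form of Erbb2. Intrahepatic tumours of days 10 (rats 1 to 3), 15 (rats 4 to 6) and 25 (rats 7 to 9) were profiled, and rats 7 to 9 also gave 1 peritoneal metastasis each. The right liver lobe of the same 9 rats, which the labels call normal liver, was the comparison tissue at each day. All tumours come from 1 cell line, and every liver comes from a rat that carried a tumour, so the livers are not those of untreated rats. The descriptions of the day 25 livers name day 55, whereas their titles name day 25, which was used.

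Epithelial sheets hold together through junctions near their apical surface, where claudins seal the space between neighbouring cells and set which ions pass. Epcam, a surface glycoprotein of cell adhesion, binds claudin 7 and stabilises claudins at the membrane. Cd24 is a small lipid-anchored surface glycoprotein that is also carried by neutrophils and B cells, Tspan8 is a tetraspanin that organises membrane patches and exosome cargo, and Lgals4 is a galectin of digestive epithelia that binds sugar chains. In liver, claudin 3 is found in hepatocytes as well as in bile ducts, while the other members are known mainly from ductal cells. Each sample was bulk tissue, so fewer cells of a type and less RNA per cell cannot be told apart.

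Promoter windows were available for 6 of the 7 genes from RefSeq (build GRCr8), each running from 250 bases before to 50 bases after the annotated start. They are shown because these genes are classical epithelial genes, and the E-box CAGGTG (reverse complement CACCTG), the letters bound by the epithelial repressors Snail and Zeb, is in capitals. The 4 windows below are those of Cldn7 (chr10:55188420-55188719, plus strand), Epcam (chr6:12649629-12649928, minus strand), Tspan8 (chr7:53330937-53331236, plus strand) and Lgals4 (chr1:93252035-93252334, plus strand), written 5′ to 3′ along each gene.
Cldn7: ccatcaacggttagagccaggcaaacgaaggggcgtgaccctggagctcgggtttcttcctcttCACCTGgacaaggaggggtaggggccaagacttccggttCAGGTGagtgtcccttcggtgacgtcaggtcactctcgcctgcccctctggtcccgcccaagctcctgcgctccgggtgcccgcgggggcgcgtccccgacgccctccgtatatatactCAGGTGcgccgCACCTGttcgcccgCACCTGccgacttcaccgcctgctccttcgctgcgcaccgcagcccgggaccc
Epcam: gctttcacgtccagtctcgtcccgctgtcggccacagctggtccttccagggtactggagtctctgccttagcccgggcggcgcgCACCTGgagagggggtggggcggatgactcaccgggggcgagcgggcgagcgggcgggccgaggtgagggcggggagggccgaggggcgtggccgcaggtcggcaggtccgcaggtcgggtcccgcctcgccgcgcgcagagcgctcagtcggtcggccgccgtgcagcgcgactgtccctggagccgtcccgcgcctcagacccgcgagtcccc
Tspan8: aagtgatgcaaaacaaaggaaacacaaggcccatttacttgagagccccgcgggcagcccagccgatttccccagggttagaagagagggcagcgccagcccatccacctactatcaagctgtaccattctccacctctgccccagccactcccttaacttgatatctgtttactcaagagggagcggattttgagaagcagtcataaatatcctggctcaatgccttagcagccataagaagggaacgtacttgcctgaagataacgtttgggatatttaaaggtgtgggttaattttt
Lgals4: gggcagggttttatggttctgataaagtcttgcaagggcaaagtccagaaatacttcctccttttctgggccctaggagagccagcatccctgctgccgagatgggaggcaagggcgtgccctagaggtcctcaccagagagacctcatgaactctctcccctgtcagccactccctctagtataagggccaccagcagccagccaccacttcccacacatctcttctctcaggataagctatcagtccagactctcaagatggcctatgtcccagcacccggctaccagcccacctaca

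The windows differed in the E-box count. Cldn7 had 5 matches, beginning at positions -186, -147, -28, -17 and -3 relative to the start, and it was the only 1 of 19005 protein-coding promoters of this length with 5 or more (0.005%). Epcam, Cd24 and Cldn3 had 1 match each, and Tspan8 and Lgals4 had 0, where 18.5% of all promoters held at least 1 on either strand. The windows also fell apart in base composition, with a GC content of 75.7% in Epcam, 74.0% in Cd24 and 67.0% in Cldn7, against 58.0% in Cldn3, 55.7% in Lgals4 and 48.3% in Tspan8 (median of all promoters 55.3%). GC boxes (GGGCGG, either strand, in 43.1% of promoters) numbered 4 in Epcam, 3 in Cd24 and 1 each in Cldn3 and Cldn7, with 0 in Tspan8 and Lgals4. No member window held TATAAA (13.1% of promoters) or the Grainyhead-like motif AACNGGTT (1.9%), and Lgals4 alone held the Cdx motif TTTATNG (10.2%), at -241. These are letter matches on both strands, and a window without a match says only that the letters are not in it. Cldn3 and Cldn4 are neighbours on chromosome 12 in GRCr8, with 2 pseudogenes (Rps13-ps6 and Arpc5l-ps3) between them.

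Of the 7 genes, 6 were higher in tumour than in liver at every day and higher in metastasis than in liver, and the arrays of these groups did not overlap for any of the 6. The exception was Cldn3, whose level was similar in tumour and liver. Averaged over the 3 days, 6 of 7 members rose and 0 fell (limma, adjusted p under 0.05), where 36.8% of all genes rose, 37.8% fell and 74.6% were called in either direction. All tumour arrays lay above all liver arrays for these 6 genes and for 19.7% of all genes. A call is therefore common in this comparison, so the sizes are given too: the members' median log2 fold change was 4.44, against -0.03 over all genes. By size, Lgals4 stood at rank 2 of 14218 genes, Tspan8 at 4, Cd24 at 11, Epcam at 34, Cldn7 at 71, Cldn4 at 83 and Cldn3 at 6693. The members were picked with earlier results of these data known, so these sizes and ranks describe them and carry no test.

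**Figure D1:**
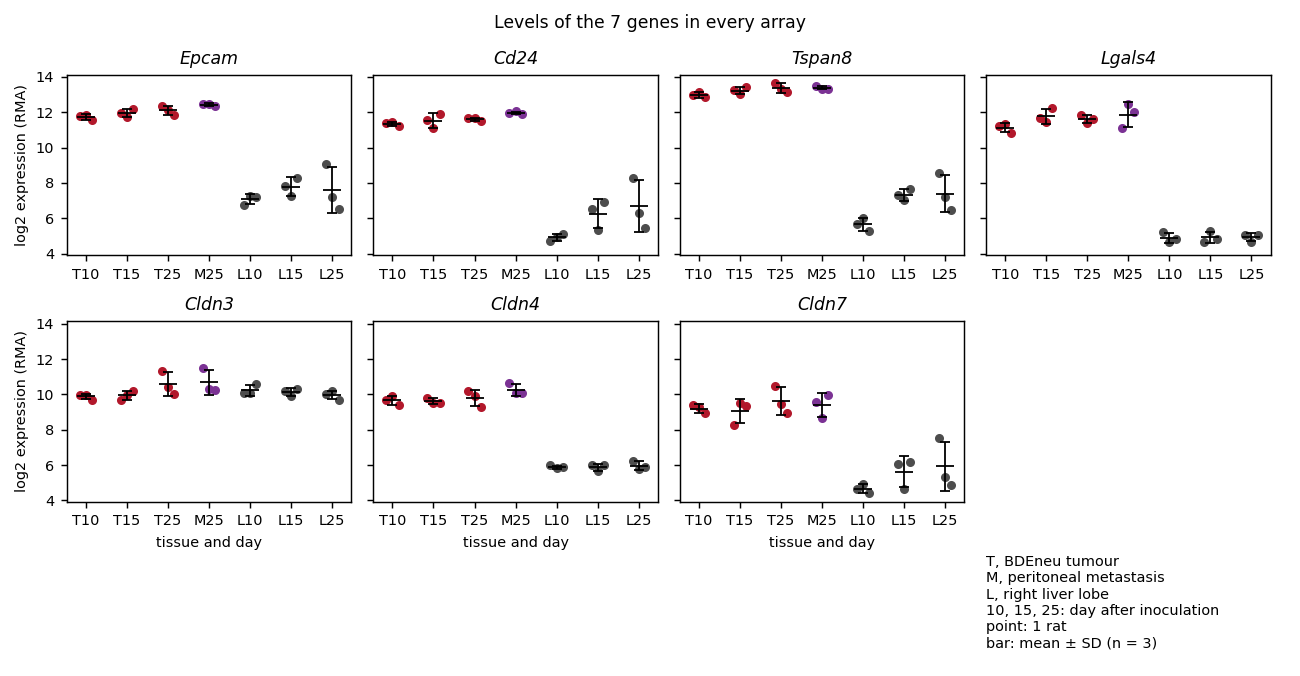
Log2 expression (RMA, vertical axis) of each of the 7 genes in every array of the 7 tissue and day groups (horizontal axis), with points for rats and lines for group means. Tumour and metastasis arrays lie above all liver arrays for 6 genes, whereas for Cldn3 tumours span 9.70 to 11.32 and livers 9.69 to 10.60.

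Among the surface proteins, Epcam read 11.81, 11.85 and 11.56 in day 10 tumours, 11.94, 11.71 and 12.17 in day 15 tumours and 12.36, 12.12 and 11.87 in day 25 tumours. The metastases of rats 7, 8 and 9 read 12.48, 12.46 and 12.34. Liver levels of Epcam were 6.74, 7.28 and 7.23 at day 10, 7.81, 7.25 and 8.30 at day 15 and 9.07, 7.23 and 6.51 at day 25. The lowest tumour lay 2.49 above the highest liver, and the livers spread over 2.56 on the log2 scale where tumours and metastases together spread over 0.92. The fold change of tumour over liver was 4.44 ± 0.25 (log2, SE; adjusted p = 1.4e-10), and 4.66, 4.15 and 4.52 at days 10, 15 and 25 (SE 0.43 each). Ordered by group mean, Epcam ran from metastases (12.43 ± 0.08, SD, n = 3) through day 25 (12.12 ± 0.25), day 15 (11.94 ± 0.23) and day 10 tumours (11.74 ± 0.16) to day 15 (7.79 ± 0.52), day 25 (7.60 ± 1.32) and day 10 livers (7.08 ± 0.30). The step between day 10 tumours and day 15 livers far exceeded the spread of its neighbours, that of 0.31 between metastases and day 25 tumours exceeded their SDs but was not called, and the other steps lay within the larger SD.

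Cd24 followed the same split between tissues. Its tumour values were 11.38, 11.44 and 11.23 at day 10, 11.59, 11.09 and 11.91 at day 15 and 11.65, 11.67 and 11.50 at day 25, with 11.95, 12.05 and 11.90 in the metastases. Liver values were 4.73, 4.94 and 5.09 at day 10, 6.54, 5.33 and 6.93 at day 15 and 8.31, 6.31 and 5.44 at day 25. Tumours were nearly level across rats, while the liver of rat 7 stood 3.59 above that of rat 1. The fold change over liver was 5.54 ± 0.29 (SE, adjusted p = 7e-11) over all days, and 6.43, 5.26 and 4.92 at days 10, 15 and 25 (SE 0.50 each). Cd24 receptors on other cells were sparsely measured: of 2 of 4 listed genes on the array, Selp, the vascular selectin, rose by 0.47 ± 0.09 (adjusted p = 0.00021) and Siglec10 differed by -0.03 (adjusted p = 0.71).

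Tspan8 showed the widest gap between tissues at day 10. It read 12.95, 13.17 and 12.84 in day 10 tumours, 13.24, 13.02 and 13.42 in day 15 tumours, 13.67, 13.32 and 13.15 in day 25 tumours and 13.48, 13.33 and 13.34 in metastases. Livers read 5.67, 6.04 and 5.29 at day 10, 7.31, 7.01 and 7.66 at day 15 and 8.56, 7.18 and 6.46 at day 25. All livers of days 15 and 25 lay above all those of day 10, and all stayed far below the tumours. The fold change of tumour over liver was 6.40 ± 0.21 (SE, adjusted p = 2.1e-13), with 7.33, 5.90 and 5.98 at days 10, 15 and 25 (SE 0.36 each). Of the other tetraspanins, 15 of 22 measured rose and 6 fell (median 1.01), where 36.8% of all genes rose and 37.8% fell. The largest rises were those of Cd9 (4.13 ± 0.20), Cd53 (2.65 ± 0.11), a leukocyte tetraspanin, and Tspan3 (2.40 ± 0.08), while Tspan18 differed by 0.02 (adjusted p = 0.86).

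Lgals4, like Cldn4, spread over only 0.61 among the livers. Tumours read 11.22, 11.31 and 10.82 at day 10, 11.66, 11.43 and 12.23 at day 15 and 11.83, 11.41 and 11.64 at day 25, and metastases 11.12, 12.46 and 12.03. The livers lay between 4.67 and 5.28 with a median of 4.85, in every rat below the median of its own array. Tumour exceeded liver by 6.58 ± 0.17 (log2, SE; adjusted p = 1.5e-14), and by 6.21, 6.84 and 6.70 at days 10, 15 and 25 (SE 0.29 each). Among the other galectins, 3 of 9 measured rose and 3 fell (median -0.08), where 36.8% of all genes rose and 37.8% fell. Lgals1 rose by 3.97 ± 0.26 and Lgals3 by 2.34 ± 0.09, while Lgals9 moved the other way, at -1.82 ± 0.27. Lgalsl differed by -0.08 (adjusted p = 0.35). The metastasis with the highest Lgals4 value, that of rat 8, also had the highest mean of an intestinal epithelium list (9.27 over 10 genes, against 6.42 to 7.69 in the other tumours and metastases) and of a pancreatic acinar list (10.2 over 13 genes). Without that array Lgals4 exceeded day 25 liver by 6.64 (adjusted p = 4.5e-10), where all 3 metastases gave 6.94.

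The 3 claudins did not move as a block. Cldn4, a claudin that tightens the paracellular path of many epithelia, read 9.71, 9.88 and 9.39 in day 10 tumours, 9.82, 9.51 and 9.51 in day 15 tumours, 10.21, 9.90 and 9.31 in day 25 tumours and 10.65, 10.06 and 10.08 in metastases. Its livers spanned only 5.64 to 6.25, with a median of 5.88. The fold change was 3.78 ± 0.12 over all days (SE, adjusted p = 2.4e-13) and nearly equal at days 10, 15 and 25, at 3.77, 3.74 and 3.84 (SE 0.21 each). Cldn7, the claudin partner of Epcam, varied more: 9.39, 9.26 and 8.92 in day 10 tumours, 8.26, 9.53 and 9.32 in day 15 tumours, 10.50, 9.47 and 8.95 in day 25 tumours and 9.56, 8.65 and 9.97 in metastases. Its livers read 4.66, 4.94 and 4.40 at day 10, 6.09, 4.64 and 6.16 at day 15 and 7.52, 5.35 and 4.90 at day 25. The tissues still did not overlap, since the lowest tumour, rat 4 at 8.26, lay 0.74 above the highest liver, rat 7 at 7.52. The Cldn7 fold change was 3.88 ± 0.35 (SE, adjusted p = 3.6e-08), and 4.52, 3.41 and 3.72 at days 10, 15 and 25 (SE 0.60 each).

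Cldn3 was the member not called between tumour and liver. Tumours read 9.99, 9.97 and 9.71 at day 10, 9.70, 9.95 and 10.18 at day 15 and 11.32, 10.39 and 10.00 at day 25, and metastases read 11.50, 10.28 and 10.24. Livers read 10.07, 10.06 and 10.60 at day 10, 10.20, 9.91 and 10.30 at day 15 and 10.03, 10.18 and 9.69 at day 25. Pooled over days, the tissues overlapped apart from the tumour and metastasis of rat 7, which stood above all other arrays. At day 10 alone, all tumours (9.71 to 9.99) lay below all livers (10.06 to 10.60), a difference that was not called. Over all days the difference was 0.02 ± 0.19 (SE, adjusted p = 0.93). By day it was -0.35 (adjusted p = 0.36), -0.20 (adjusted p = 0.64) and 0.60 (adjusted p = 0.13) at days 10, 15 and 25 (SE 0.32 each), and the day 25 difference was 0.23 (adjusted p = 0.57) without the tumour of rat 7, but 0.89 and called without the tumour of rat 9 (adjusted p = 0.040) or without the arrays holding acinar transcripts (adjusted p = 0.043).

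In metastasis over liver the Cldn3 call depended on the model. Of the 7 genes, 6 rose and 0 fell (33.4% of all genes rose, and 32.9% had metastasis arrays above the liver arrays), with fold changes of 6.94 for Lgals4, 5.99 for Tspan8, 5.28 for Cd24, 4.82 for Epcam, 4.30 for Cldn4 and 3.47 for Cldn7. The difference for Cldn3 was 0.71 ± 0.32 (adjusted p = 0.072), and with rat as a random block it passed, at the same 0.71 (adjusted p = 0.044). The 3 metastases, from 10.24, lay just above the 3 day 25 livers, up to 10.18. Without the metastasis of rat 7 it was 0.29 (adjusted p = 0.40). The hepatocyte list, whose cells are known to hold claudin 3, averaged 5.94 to 6.71 in metastases, 7.83 to 11.61 in tumours and 12.14 to 12.85 in livers over its 16 measured genes. Its summed linear signal was 3623 to 5812 in metastases and 119769 to 163683 in day 25 livers. The tumour of rat 7 had the lowest hepatocyte mean of the 9 tumours, at 7.83, and the highest Cldn3 level of them, 11.32. The metastases, with less hepatocyte signal than any tumour, read 10.24 to 11.50 for Cldn3, against 9.69 to 10.60 in the livers. The part of hepatocytes in the Cldn3 values was not tested.

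**Figure D2:**
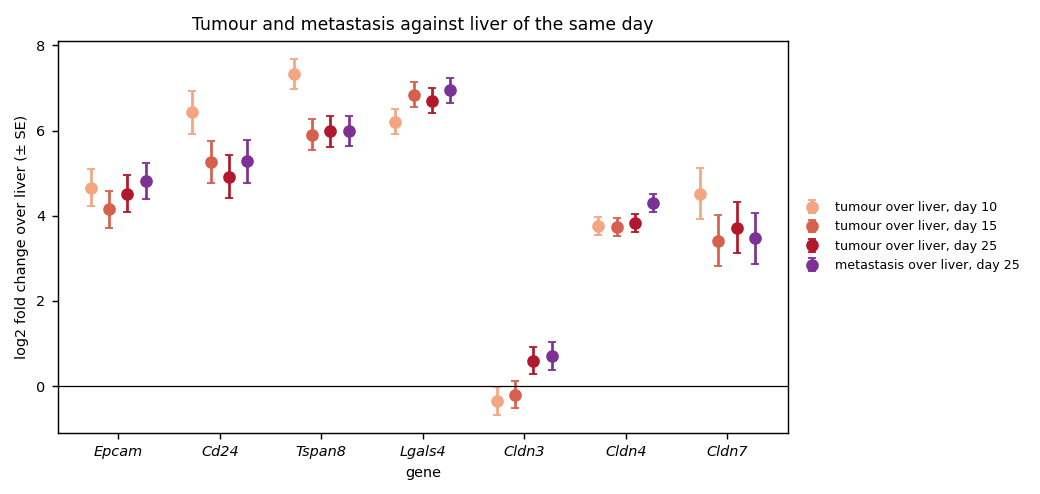
Log2 fold change over liver of the same day (vertical axis, ± SE) for each of the 7 genes (horizontal axis), with 1 point each for tumours of days 10, 15 and 25 and for day 25 metastases. The 6 genes other than Cldn3 lie between 3.41 and 7.33, and Cldn3 lies between -0.35 and 0.71.

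At each single day, too, 6 of 7 members rose and 0 fell. The share of all genes that rose was 30.4% at day 10, 28.2% at day 15 and 27.7% at day 25, and the share whose tumour arrays lay above the liver arrays was 36.8%, 32.4% and 29.1% at these days. The members' median fold change was 4.66, 4.15 and 4.52 at days 10, 15 and 25, against -0.03, -0.01 and -0.01 over all genes.

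Other tight junction genes were mixed. Of 35 listed genes 28 were measured. Averaged over days 12 of them rose and 10 fell in tumour, where 36.8% of all genes rose and 37.8% fell. Their median was -0.02, against -0.03 over all genes. Cldn6 (1.64 ± 0.12, SE; adjusted p = 2.5e-09) and the polarity gene Pard6b (1.59 ± 0.14) rose, Cldn14 fell (-1.66 ± 0.19), and F11r, which codes for junctional adhesion molecule A, differed by -0.10 (adjusted p = 0.38). Among the 12 other claudins measured, 3 rose and 6 fell, within -1.66 to 1.64. Cldn4 and Cldn7 lay beyond that range and Cldn3 near its middle. However, Cldn8, Cldn10, Cldn11, Cldn16, Cldn18, Cldn19 and Cldn22 averaged only 3.64 to 5.83 over the arrays, below the lowest array median of 5.98. Of the claudins called, Cldn10 (0.26), Cldn16 (-0.23), Cldn19 (-0.20) and Cldn22 (-0.14) were among these low ones. Their calls say little about expressed claudins. The strand-forming Ocln (0.98 ± 0.13) and the scaffold Tjp1 (0.74 ± 0.11), chosen after their values were seen, were also higher in tumour.

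**Figure D3:**
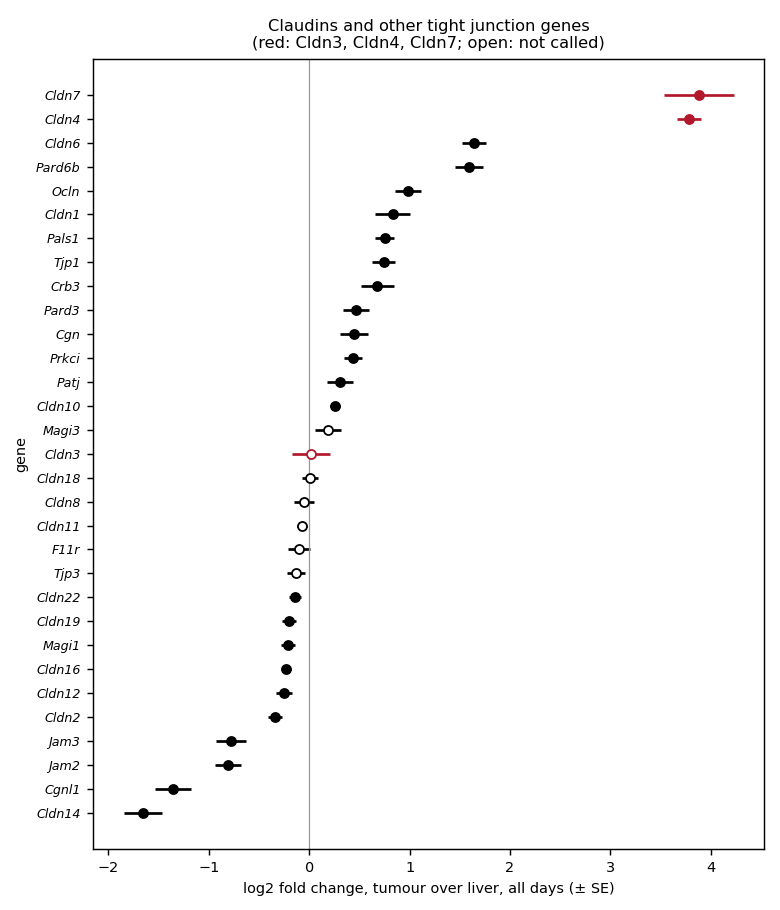
Log2 fold change of tumour over liver, averaged over the 3 days (horizontal axis, ± SE), for Cldn3, Cldn4 and Cldn7 in red and for 28 other tight junction genes in black (vertical axis), with open points for genes not called. Cldn7 (3.88) and Cldn4 (3.78) lie apart from the others, which reach 1.64.

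Other biliary genes were set beside the members, in a comparison where 36.8% of all genes rose and 37.8% fell. Of 19 measured, 15 rose and 2 fell in tumour over liver (median 1.24), with Krt19 at 6.31 ± 0.26, Krt7 at 6.04 ± 0.18 and Spp1 at 4.42 ± 0.25, while the keratin Krt18, shared by hepatocytes, differed by -0.10 (adjusted p = 0.55). Since genes of stroma and neutrophils rose as well, this shared direction does not show that the members' signal is biliary. Erbb2, the gene whose activated form transformed the inoculated cells, was higher in tumour by 4.16 ± 0.22 (SE, adjusted p = 5.8e-11). A further list held Epcam partners, proteases and the protease inhibitors Spint1 and Spint2. Of its 13 measured genes 10 rose and 3 fell (median 1.29), where 74.6% of all genes were called. Those that rose included Cd44 (4.20 ± 0.16), a hyaluronan receptor, Cd9 (4.13 ± 0.20) and Fhl2 (2.97 ± 0.13), which binds the intracellular tail of Epcam in human cells. Genes of other cells moved in the same comparison: 10 of 10 myofibroblast genes and 6 of 7 neutrophil genes rose, and 15 of 16 hepatocyte genes fell. The neutrophil list, whose cells carry Cd24, had a summed linear signal of 4218 to 17147 in tumours and 383 to 8946 in livers, and its part in the Cd24 difference was not tested. Of 5 B cell genes 1 rose and 3 fell, but their summed linear signal was 390 to 699 in tumours and 289 to 321 in livers. The part of B cells in the Cd24 difference was not tested either. Of 8 mesothelial genes 3 rose and 2 fell, with sums of 871 to 1833 in tumours and 307 to 886 in livers. Of 10 intestinal genes 2 rose and 2 fell, and of 13 acinar genes 0 were called (0 at an unadjusted p under 0.05). The acinar list exceeded that of the median array by over 1 log2 unit in the tumours of rats 5 and 9 and the metastasis of rat 8, and without these arrays the tumour-liver fold changes of Epcam, Cd24, Tspan8, Lgals4 and Cldn7 were 4.52, 5.63, 6.48, 6.63 and 3.92.

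Among tumours no member passed the test between days. Between day 25 and day 10 tumours, 0 of 7 were called by limma (0 at an unadjusted p under 0.05; 0.0563% of all genes called), with fold changes of 0.38 for Epcam, 0.26 for Cd24, 0.39 for Tspan8, 0.51 for Lgals4, 0.68 for Cldn3, 0.15 for Cldn4 and 0.45 for Cldn7. All 7 differences were positive, with a median of 0.39 against 0 over all genes. In the same comparison the hepatocyte list had a median of -1.07 (0 of 16 called, 5 at an unadjusted p under 0.05) and the neutrophil list of 1.12 (0 of 7 called, 6 at an unadjusted p under 0.05), and the part of these cells was not tested. The day 25 and day 10 arrays did not overlap for Epcam, Cd24, Lgals4 and Cldn3, as for 12.2% of all genes in the upward direction. The Cldn3 difference was 0.30 without the tumour of rat 7. Between day 15 and day 10 tumours 0 of 7 were called (1 at an unadjusted p under 0.05; 0% of all genes), and the largest difference was 0.66 for Lgals4 (unadjusted p = 0.034, adjusted p = 1). Between day 25 and day 15 tumours 0 of 7 were called (0 at an unadjusted p under 0.05; 0% of all genes), with 0.63 for Cldn3 (adjusted p = 0.61) and 0.60 for Cldn7 (adjusted p = 0.78).

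Between metastases and tumours of day 25 no member was called (0 of 7 by limma, 1 at an unadjusted p under 0.05; 0.338% of all genes called). Cldn4 differed by 0.46 ± 0.21 (SE, unadjusted p = 0.048, adjusted p = 0.81) and was higher in the metastasis than in the tumour of the same rat by 0.44, 0.16 and 0.78 in rats 7, 8 and 9. Cd24 differed by 0.36 ± 0.50 (adjusted p = 0.90), and its within-rat differences were 0.30, 0.38 and 0.39. For Cldn7 the mean difference was -0.25 ± 0.60 (adjusted p = 0.95), and rats 7 and 8 went against rat 9, at -0.94, -0.82 and 1.02. The other differences were 0.31 for Epcam, 0.24 for Lgals4, 0.10 for Cldn3 and 0.01 for Tspan8.

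In the livers 4 members spread over 2.56 to 3.59 on the log2 scale between rats (Epcam, Cd24, Tspan8 and Cldn7), Cldn3 over 0.91, and Lgals4 and Cldn4 over 0.61 each. Cd24 was higher in day 25 than in day 10 livers by 1.77 ± 0.50 (SE, adjusted p = 0.038) and Tspan8 by 1.74 ± 0.36 (adjusted p = 0.0077), so that 2 of 7 members rose and 0 fell (5.33% of all genes rose), and the arrays of these 2 genes did not overlap (15.1% of all genes were apart in this direction). Cldn7 differed by 1.26 ± 0.60 (adjusted p = 0.20) and Epcam by 0.52 ± 0.43 (adjusted p = 0.50). Lgals4 (0.02), Cldn4 (0.08) and Cldn3 (-0.28) stayed close to 0. The median of the members was 0.52, against -0.01 over all genes. Fitted on day 25 and day 10 livers alone, neither call remained (adjusted p = 0.18 for Cd24 and 0.11 for Tspan8), and without the day 25 liver of rat 7 Cd24 differed by 0.95 (adjusted p = 0.14), Tspan8 by 1.15 (adjusted p = 0.015), Cldn7 by 0.46 (adjusted p = 0.70) and Epcam by -0.21 (adjusted p = 0.73).

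The day 25 mean hides the spread among rats. For Epcam, Cd24, Tspan8 and Cldn7 alike, the highest liver was that of rat 7, the next that of rat 6 and the next that of rat 4, although rats 4 and 6 were sampled at day 15. The livers of rats 8 and 9 were lower: Cldn7 read 7.52 in rat 7 but 5.35 in rat 8 and 4.90 in rat 9. Between day 15 and day 10 livers, a comparison added after the values were seen, Tspan8 differed by 1.66 ± 0.36 (unadjusted p = 0.00025, adjusted p = 0.12) and Cd24 by 1.34 ± 0.50 (adjusted p = 0.37), and the arrays did not overlap for either (11% of all genes were apart in this direction). No member was called there (0 of 7 by limma, 2 at an unadjusted p under 0.05; 0.0281% of all genes). Over the 9 livers, which share day as a source of variation, Cd24 and Cldn7 correlated at Pearson r = 0.965, Cd24 and Tspan8 at 0.925, Epcam and Cldn7 at 0.904 and Epcam and Tspan8 at 0.799, given as a description. Cldn4, whose livers spread far less, had the same 3 rats on top in the order 7, 4 and 6, and correlated at 0.78 with Cldn7, 0.681 with Cd24, 0.66 with Epcam and 0.453 with Tspan8. Lgals4 correlated with these 4 genes at -0.127 to 0.005, and Cldn3 at -0.218 to 0.26.

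**Figure D4:**
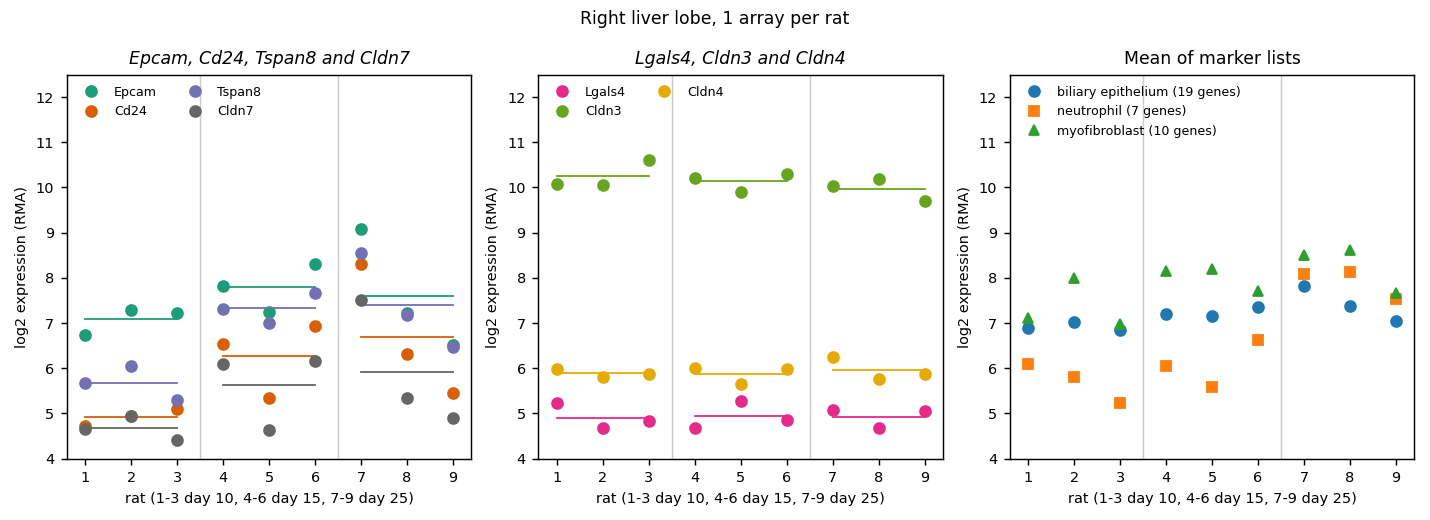
Log2 level (vertical axis) in the right liver lobe of rats 1 to 9 (horizontal axis, days 10, 15 and 25 from left to right), with lines for day means, for the 4 members with the wider spread (left) and the other 3 (middle), and the mean of 3 marker lists (right). Rat 7 is the highest for Epcam (9.07), Cd24 (8.31), Tspan8 (8.56) and Cldn7 (7.52), whereas Lgals4 stays within 4.67 to 5.28 and Cldn4 within 5.64 to 6.25.

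Set against the tumour of the same rat on the linear scale, the liver signal of Cldn7 was 22.2% in rat 4, 12.6% in rat 7 and 11.2% in rat 6, and 3.36% to 6.03% in the other rats. Cd24 in liver was 9.89% of the tumour signal in rat 7, 3.17% in rat 6 and 3.00% in rat 4, and 0.991% to 2.44% in the others. The same measure was 0.601% to 1.57% for Lgals4 and 5.72% to 9.33% for Cldn4 over all 9 rats. However, liver values lay below the array median in 9 of 9 livers for Lgals4, 7 of 9 for Cldn4, 6 of 9 for Cldn7 and 5 of 9 for Cd24. No detection call is at hand for values this low, so these percentages are not compared between genes.

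Other cell markers moved in the same livers. The biliary list averaged 7.82 in the liver of rat 7 and 6.84 to 7.37 in the other 8, and its summed linear signal was 8341 to 18278 at day 25 against 5802 to 7515 at day 10. Krt19 read 7.77 in rat 7 and 4.86 to 6.46 in the others, and it was not called between day 25 and day 10 livers (1.08, adjusted p = 0.14). Other biliary genes differed: Krt7 was highest in the liver of rat 5 (6.56, against 6.42 in rat 7). Spp1 was also highest in rat 5 (9.24) and was lowest in rat 7 (6.40). Between day 25 and day 10 livers, where 5.33% of all genes rose, 2 of the 19 biliary genes rose and 0 fell. These were Krt8 (1.46, adjusted p = 0.036) and Krt18 (1.44, adjusted p = 0.0047), and Krt18 is shared by hepatocytes. Neither Krt7 (0.17, adjusted p = 0.79) nor Spp1 (0.02, adjusted p = 0.99) was called. The neutrophil list, whose cells carry Cd24, averaged 8.08, 8.14 and 7.53 in the livers of rats 7, 8 and 9 and 5.22 to 6.09 at day 10, with summed signals of 4913 to 8946 and 383 to 1111, and 5 of 7 genes rose, among them S100a8 (4.44 ± 0.68, SE; adjusted p = 0.0014). Rat 8 had the highest neutrophil mean, with a Cd24 level of 6.31. The B cell list averaged 5.54 to 5.59 at day 25 and 5.49 to 5.61 at day 10. The myofibroblast list reached 7.67 to 8.62 at day 25 and 6.97 to 7.99 at day 10, with 2 of 10 genes called higher. The part of these cells in the liver values of the members was not tested.

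Several wider lists held called genes in livers of day 25 against day 10, where 5.33% of all genes rose. Of 28 tight junction genes 0 rose and 2 fell, Cgn, a junction plaque protein, at -1.14 (adjusted p = 0.0088) and the scaffold Tjp3 at -0.69 (adjusted p = 0.014). Of 22 tetraspanins 4 rose, by 0.36 to 1.32, and 0 fell, with 9 at an unadjusted p under 0.05, and of 9 galectins Lgals3 alone rose (1.31 ± 0.16, adjusted p = 0.00022). Of the 13 measured genes of the Epcam list, Fhl2 (1.43), Cd44 (1.07) and the sheddase Adam10 (0.47) rose and Bace1 (-0.55) fell, with 8 at an unadjusted p under 0.05. Hepatocyte genes were nearly level as a list (median -0.03), with 1 of 16 called, Cyp2c11, the male-specific cytochrome, at -5.54 ± 1.32 (adjusted p = 0.016).

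Whether the tumour-liver difference itself changed between days was tested directly. No member was called between day 25 and day 10 (0 of 7 by limma, 1 at an unadjusted p under 0.05; 1.46% of all genes). The change was -1.34 ± 0.50 for Tspan8 (SE, unadjusted p = 0.017, adjusted p = 0.18) and -1.51 ± 0.71 for Cd24 (adjusted p = 0.28), both narrower at day 25. It was 0.96 ± 0.46 for Cldn3 (adjusted p = 0.29), and -0.80, -0.14, 0.07 and 0.49 for Cldn7, Epcam, Cldn4 and Lgals4.

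Genes with the most similar profile over all 21 arrays followed the tissue split for 6 members. For Epcam these were Krt19 (Pearson r = 0.992), Spns2 and Cd9 (0.991 each), for Cd24 Capn2 (0.995), Cxcl16 and Cttnbp2nl (0.994 each), and for Tspan8 S100a11 (0.996), Krt19 and Cxcl16 (0.995 each). For Lgals4 they were Nefh (0.993), Prss22 and Cux1 (0.992 each), for Cldn4 Golm2 (0.996), Cdk14 and Mall (0.994 each), and for Cldn7 Tes, Capn2 (0.975 each) and Nap1l1 (0.974). Cldn3 stood alone, with Sptssa (0.900), Lgr5 (0.899) and Pex11a (0.893). The points share tissue and rat, so these values describe the profiles and carry no test.

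Within the 12 tumour and metastasis arrays the profiles were looser. Epcam and Cd24 correlated at 0.914, Epcam and Tspan8 at 0.881 and Cldn3 and Cldn4 at 0.806, whereas Cldn7 and Cd24 correlated at 0.065, a pair at 0.965 across the livers. Lgals4 correlated with the 3 claudins at 0.006 to 0.089. The closest other genes were Itpr3 for Epcam (0.979), Fam120a for Cd24 (0.954), Spry2 for Tspan8 (0.967), Ntaq1 for Lgals4 (0.893), Phgdh for Cldn3 (0.989), Kif1c for Cldn4 (0.968) and Metrn for Cldn7 (0.879). The tumour of rat 7 had the highest tumour value of Epcam, Tspan8, Cldn3, Cldn4 and Cldn7, which were 5 of the 7 genes, and that of rat 6 the highest of Cd24 and Lgals4.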

How the data were processed

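The authors deposited log2 values for the probe sets of an Affymetrix rat array, computed with RMA (program and version not given in the sources used here), per the submitters' processing notes. RMA aligns the distribution of all arrays, so array medians lay between 5.98 and 6.06, and low values are compressed. Detection calls were not used here, and the number of arrays limits the precision. Of 31099 probe sets, 20832 name a single symbol, 436 name several and 9831 are not listed in the platform annotation. Each of 14218 genes was read from its single-symbol probe set of highest average level over the 21 arrays.

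Tests used limma 3.58.1 in R 4.3.3 (lmFit, contrasts.fit and eBayes without a trend) on 7 group means, adjusted by Benjamini-Hochberg over all genes and called at an adjusted p under 0.05. The code was tested on simulated data. The members and the 13 gene lists (163 of 192 entries measured) were chosen with earlier results of these data known. The text names the 7 members. Of the tight junction, biliary, Epcam, tetraspanin, galectin and Cd24 receptor lists it names up to 3 called genes and any uncalled gene. The called genes are those with the largest change in tumour over liver, and the uncalled gene is the one with the highest mean. For the hepatocyte, acinar, intestinal, mesothelial, B cell, neutrophil and myofibroblast lists, tumour over liver is given by counts and levels, without the genes of this rule. For each member it names up to 3 other genes with the highest correlation over all arrays, or over tumours and metastases. Called list genes in liver were added after their values were seen. Per the labels, tissues of 1 rat are paired, and deviations of same-rat samples from their group means correlated at 0.04 to 0.578. The labels give no scan date or batch. Alternatives were rat as a block, array weights, an intensity trend, other normalizations and filters, all probe sets, only the groups compared, leaving out arrays with acinar transcripts and leaving out each array.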

Additional observations from a re-analysis of the deposited data

Results flagged for a closer look

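For Cldn3, tumour minus liver was negative in all 3 rats of day 10 (-0.08, -0.09 and -0.88) and positive in all 3 rats of day 25 (1.29, 0.21 and 0.31), so that the rats of each day moved opposite ways. The change of the difference, day 25 over day 10, was 0.96 ± 0.46 on the log2 scale (SE), and the test of that change did not pass in limma (adjusted p = 0.29). Leaving out each array in turn gave 0.58 to 1.24.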

How the results depend on the processing

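The counts of 6 of 7 members higher in tumour than in liver (all days, day 10 and day 15) were 6 under every alternative, and 6 or 7 at day 25 and for metastasis over liver, where Cldn3 joined under some. The rat as a replicate block changed no call other than that of Cldn3 in metastasis over liver (0.71, adjusted p = 0.044 with a random block and 0.027 with a fixed block). Array weights gave 1 called member in metastasis over tumour (Lgals4, 0.57), 2 in tumour day 25 over day 15 (Cldn3, 0.62, and Cldn7, 0.99), 1 in tumour day 25 over day 10 (Cldn3, 0.49), 1 in the change of the tumour-liver difference (Tspan8, -1.09) and 2 in liver day 15 over day 10 (Cd24, 1.61, and Tspan8, 1.75), where the model without weights called 0. For liver day 25 over day 10, 2 members were called, against 0 when only these groups were fitted (fewer arrays for the spread) and 1 without the arrays holding acinar transcripts, where Cd24 was lost (adjusted p = 0.056). Leaving out each array gave 1 to 2 there, and 0 to 1 for the change of the difference and for liver day 15 over day 10. In the change of the difference Tspan8 passed without the liver of rat 9 (-1.82, adjusted p = 0.033), and in liver day 15 over day 10 it passed without the liver of rat 5, 7 or 9 (adjusted p = 0.036, 0.015 and 0.035). Cd24 was lost in liver without any of 7 arrays: tumours of rats 1 and 3 and livers of rats 1, 2, 3, 7 and 8, with adjusted p up to 0.14. Epcam in liver day 25 over day 10 reversed without the liver of rat 7 (-0.21, leave-one-out range -0.21 to 1.07). Cldn3 passed at day 25 without the tumour of rat 9 (0.89, adjusted p = 0.040) and in metastasis over liver without the tumour of rat 7 (adjusted p = 0.036) or the metastasis of rat 8 (0.043) or 9 (0.038). Over all genes the calls in liver day 25 over day 10 numbered 1294 and ran from 557 to 2374 under other settings, in metastasis over tumour 48 and 1 to 5557, and in tumour day 25 over day 10 8 and 0 to 4535, with the high ends under array weights. The cause was not tested.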
